A study of Mus musculus with 18 samples.

Results

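The 9 genes described here encode enzymes that place ADP-ribose on proteins, together with a ubiquitin ligase that works beside one of them: Parp1, Parp2, Parp8, Parp9, Parp10, Parp11, Parp12, Parp14 and Dtx3l. They were chosen by symbol, as the rows of the count table whose Ensembl identifier carries one of these names, and are 9 of the 43629 genes in the table. The mRNA of AT3 cells, a mouse mammary carcinoma line, was sequenced from its 3′ ends to ask how the response to interferon gamma (IFNγ) depends on the acetyltransferases P300 and CBP. There were 18 libraries in 6 conditions with 3 libraries each.

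In the DMSO condition, cells received vehicle alone for 3 h. In the A-241 and A-485 conditions, cells received that catalytic P300/CBP inhibitor for the same 3 h, A-241 at 250 nM and A-485 at 1000 nM. In the IFNγ condition, recombinant murine IFNγ (1 ng/mL) was present for the last 2 h after 1 h of vehicle, and in the remaining conditions it was added for 2 h after 1 h with A-241 or A-485. The IFNγ dose and the inhibitor doses in the combined conditions, which equal those of the inhibitors alone, are known from the study's methods and not from the labels. All 6 conditions are the same cell line, so nothing here speaks for another tumour or for the host's cells. The labels call the replicates biological and the series text calls them technical triplicates, so p-values measure only the spread between libraries, which may be technical.

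ADP-ribosyltransferases of the PARP family move ADP-ribose from NAD+ onto proteins, and some also modify nucleic acids. Parp1 and Parp2 build long chains at DNA breaks, whereas most of the other members here add single units. Several of these single-unit enzymes, and the pair formed by Parp9 and the ubiquitin ligase Dtx3l, are known as interferon-stimulated genes with parts in antiviral and inflammatory signalling.

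Total counts ranged from 3417167 to 7856830 per library, so 3 counts corresponded to between 0.382 and 0.878 per 1000000 unscaled counts. CPM values (counts per 1000000 counts of a library) are given here on scaled totals, on which 3 counts can fall outside that range. Irf1, a transcription factor of the IFNγ pathway, was higher with IFNγ by 5.05 on the log2 scale, as the labels imply. Of 7 epithelial markers, 6 were detected in 18 of 18 libraries and Krt19 had 1 count in all, while the macrophage marker Adgre1 and the endothelial marker Cdh5 were at 0 everywhere. The summed CPM of the 6 immune markers lay between 1.83 and 20.2. The summed level of the 7 epithelial markers was 1520 to 1770 CPM in DMSO, 982 to 1030 with A-241, 1070 to 1200 with A-485, 1320 to 1500 with IFNγ, 965 to 1110 with A-241 and IFNγ, and 1030 to 1180 with A-485 and IFNγ; its part in any result was not tested. The libraries DMSO replicate 3 and IFNγ replicate 2 stood apart, with 20.1% and 23% of their counts on the non-coding gene Gm42418 against 7.11% to 16.2% in the other 16, and the values of called members that rest on them are given with and without them.

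The 9 genes lie on 6 chromosomes of the mm10 assembly, but Parp14, Dtx3l and Parp9 are neighbours within 139732 bases of chromosome 16 (chr16:35832874-35972605). Parp14 and Dtx3l are both on the minus strand with 54966 bases between them. Dtx3l and Parp9 are on opposite strands and point away from each other, and exons near their 5′ ends overlap by 458 bases (chr16:35938694-35939151). Those shared bases lie 12183 bases from the 3′ end of Dtx3l and 33454 bases from the 3′ end of Parp9, and a 3′ counting library reads mainly near a transcript's 3′ end. On chromosome 15, the last 205 exon bases of Parp10 (chr15:76231174-76231378) lie within an exon of Plec on the same strand, 60200 bases from the 3′ end of Plec. Plec encodes the cytoskeletal linker plectin. In the study's methods a read was counted for every gene whose exon it overlaps, and no strand option is listed, which leaves the counter at its unstranded default. Reads in the exon bases that Parp10 shares with Plec, and in those that Parp9 shares with Dtx3l, would then count for both genes.

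Promoter sequences of RefSeq (GRCm38.p6, 250 bases before to 50 after a gene's start) were matched for 6 of the 9 genes, namely Parp1, Parp2, Parp8, Parp11, Parp12 and Dtx3l, with 2 starts for Parp11. They were searched on both strands for GAAANNGAA, the core of the element that interferon regulatory factors such as Irf1 recognise, and for TTCNNNGAA, the pattern of the gamma-activated sequence. The stretches outside annotated exons are printed for Dtx3l (chr16:35939207-35939277, minus strand) and Parp12 (chr6:39118350-39118472, minus strand), which rose with IFNγ, and for the upstream start of Parp11 (chr6:127446590-127446839, plus strand), the only one of the 7 promoters that held either pattern. Capitals mark bases inside a match.
Dtx3l: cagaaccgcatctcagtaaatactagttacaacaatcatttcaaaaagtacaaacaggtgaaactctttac
Parp12: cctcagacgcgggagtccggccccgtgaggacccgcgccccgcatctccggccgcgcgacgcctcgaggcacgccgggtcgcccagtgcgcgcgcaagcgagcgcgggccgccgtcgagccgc
Parp11: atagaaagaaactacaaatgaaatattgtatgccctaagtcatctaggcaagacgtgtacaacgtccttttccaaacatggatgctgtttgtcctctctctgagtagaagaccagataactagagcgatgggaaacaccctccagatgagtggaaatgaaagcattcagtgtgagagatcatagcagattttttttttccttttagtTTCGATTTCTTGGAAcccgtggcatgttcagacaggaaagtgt

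In Parp11 the core pattern was on the minus strand from position -43 relative to the gene's start, the other pattern was at -37, and they overlapped within 15 bases. Of 32851 mouse promoters of the same length, 8.56% held GAAANNGAA and 8.3% held TTCNNNGAA, so a match is common, and it describes letters in a window and not a bound site. The absence of a match in Dtx3l and Parp12 says only that these letters are not in the window searched.

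**Figure D1:**
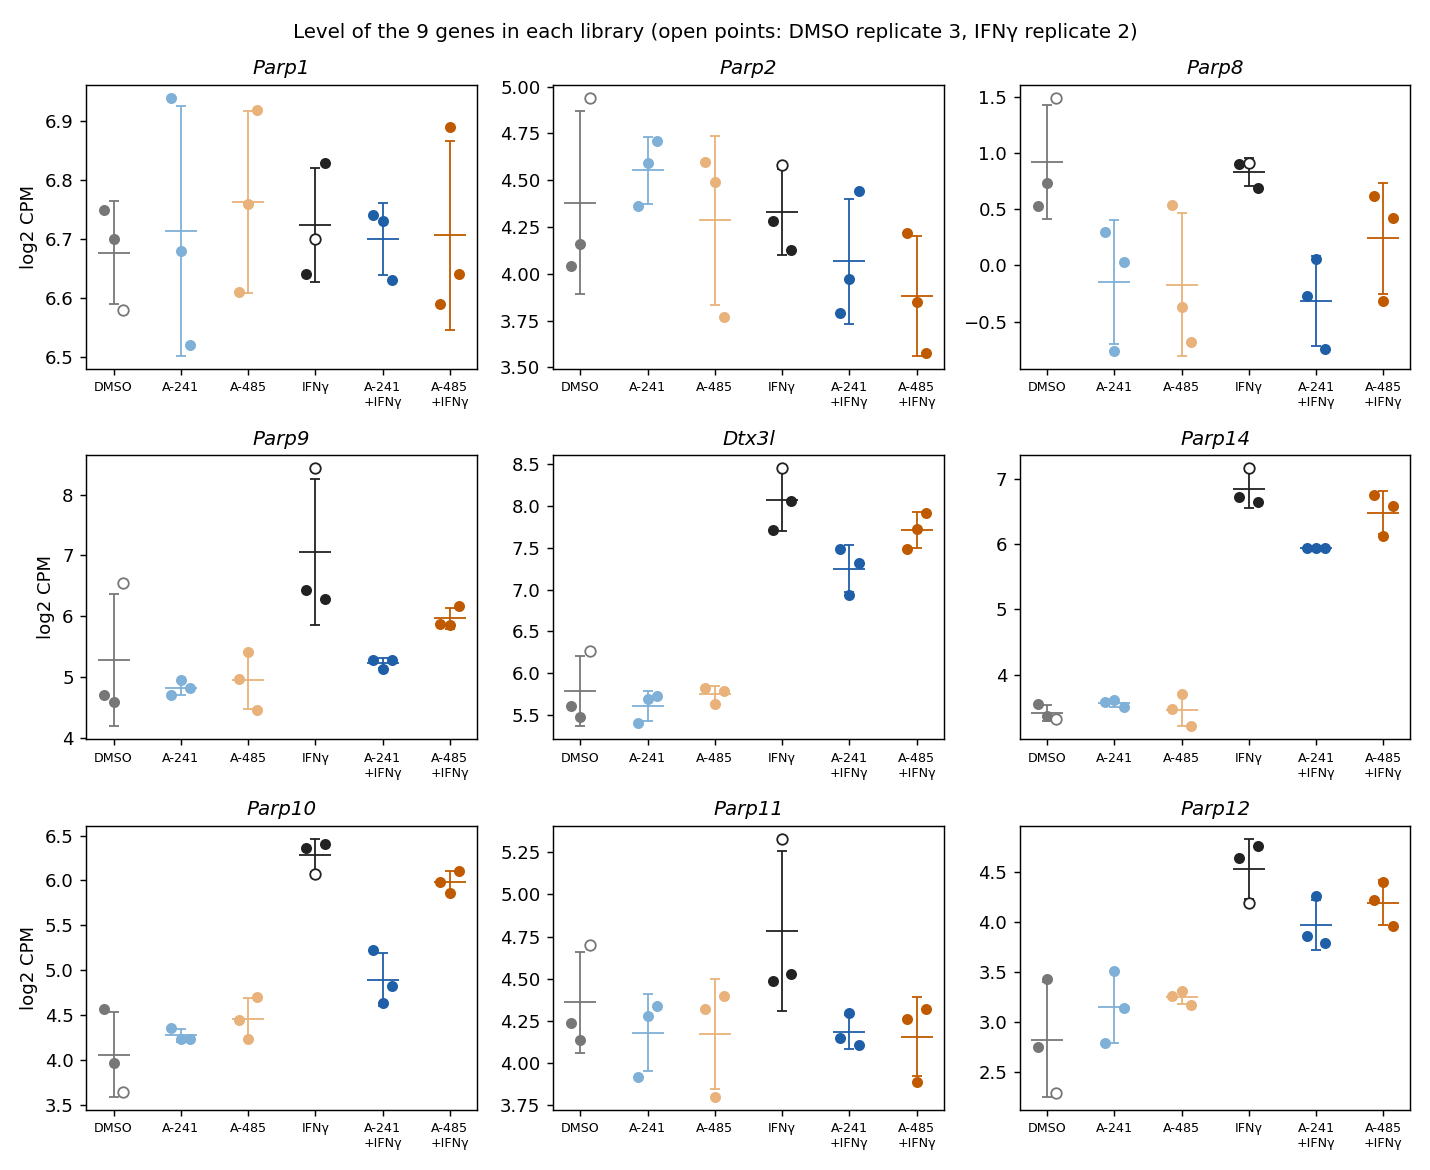
Each panel shows 1 gene, with log2 CPM on the vertical axis (each panel has its own range) and the 6 conditions on the horizontal axis. Points are single libraries, open points are DMSO replicate 3 and IFNγ replicate 2, and lines are the mean ± SD of 3 libraries. Parp14, Dtx3l, Parp10 and Parp12 were higher in every IFNγ library than in every DMSO library, and Parp1 stayed between 91.4 and 122 CPM throughout.

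The first comparison asked what IFNγ alone did to these genes. Within 2 h, 4 of the 8 members that could be tested rose: Parp14, Dtx3l, Parp10 and Parp12, by between 3.16-fold and 11.1-fold. A call means an adjusted p under 0.01 in edgeR's quasi-likelihood test over all 11964 genes tested, and 1.2% of those genes were called higher. The same 4 members were higher in each IFNγ library than in each DMSO library, which held for 4.16% of all genes. The median log2 fold change was 1.75 over the 8 members and 0 over all genes tested. A fit of only the DMSO and IFNγ libraries called Parp14 alone among the members, and 19 of 11333 genes. In bulk RNA, more cells that express a gene and more RNA per cell cannot be told apart.

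Parp14, a transferase of single ADP-ribose units with macrodomains that also bind the modification, moved most. Its level was 11.4, 9.95 and 9.67 CPM in the 3 DMSO libraries and 105, 142 and 99.5 CPM with IFNγ. The lowest IFNγ library was far above the highest DMSO library. The log2 fold change was 3.47 (SE 0.20), with an edgeR adjusted p of 1.67e-08, and 3.25 without the 2 libraries rich in Gm42418.

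Dtx3l, a ubiquitin ligase of the Deltex family that binds Parp9, stood at 48.5, 44.2 and 76.7 CPM in DMSO and at 209, 349 and 266 CPM with IFNγ. The groups did not overlap, although the highest library of each group was the one rich in Gm42418. The log2 fold change was 2.29 (SE 0.24, edgeR adjusted p = 1.48e-05), and it was 2.34 without those libraries.

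Parp10, which adds single ADP-ribose units, had 23.4, 15.3 and 12.1 CPM in DMSO and 81.5, 66.7 and 84.6 CPM with IFNγ. Here the library rich in Gm42418 was the lowest of each group, and the groups were still apart. The log2 fold change was 2.19 (SE 0.22, edgeR adjusted p = 1.12e-05), and 2.1 without those libraries. Plec, whose exon covers the 3′ end of Parp10, had a log2 fold change of -0.48 in the same comparison (edgeR adjusted p = 0.419).

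Parp12, a zinc-finger member with antiviral activity, was counted less deeply, with 13 to 66 counts per DMSO library. Its level was 6.32, 10.4 and 4.49 CPM in DMSO and 24.6, 17.9 and 26.8 CPM with IFNγ, again with no overlap of the groups. The log2 fold change was 1.66 (SE 0.27, edgeR adjusted p = 0.00173), and 1.58 without the libraries rich in Gm42418. The call was lost without DMSO replicate 1 (edgeR adjusted p = 0.0182), without IFNγ replicate 3 (0.0114) and with total counts as the only scaling (0.0111).

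Parp9, a macrodomain protein that partners Dtx3l, did not pass the test over all libraries. Its level was 25.7, 23.8 and 92.9 CPM in DMSO and 86.7, 346 and 77.6 CPM with IFNγ, so DMSO replicate 3 reached into the IFNγ range and IFNγ replicate 2 lay far above the other two. The log2 fold change was 1.85 (SE 0.54, 95% interval 0.71 to 3, edgeR adjusted p = 0.132). Without both libraries rich in Gm42418 it was 1.72 (SE 0.21, edgeR adjusted p = 2.38e-05), which passed. With only DMSO replicate 3 left out it was 2.78 (0.00519), and with only IFNγ replicate 2 left out 0.83 (0.226). The value therefore turned on which of these libraries were counted.

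The remaining members were not called. Parp11, which adds single units and has been linked to the nuclear envelope, had 18.5, 17.2 and 25.6 CPM in DMSO and 22.1, 39.9 and 22.7 CPM with IFNγ. The groups overlapped, and the log2 fold change was 0.46 (95% interval -0.05 to 0.98, edgeR adjusted p = 0.66). Parp1, the main DNA break sensor of the family, had 95.4 to 107 CPM in DMSO and 99.4 to 113 CPM with IFNγ, a log2 fold change of 0.05 with a narrow 95% interval of -0.26 to 0.35. Parp2, its close relative, had 16 to 30.4 CPM in DMSO and 17.1 to 23.5 CPM with IFNγ, and its log2 fold change of -0.09 had a 95% interval of -0.67 to 0.50. Parp8, a less studied member, had 5, 8 and 7 counts in DMSO and 12, 5 and 7 counts with IFNγ. It fell below the filter on low counts and was not tested in the main fit. With no filter it was not called with IFNγ, and at this depth a difference of Parp8 could be missed.

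The rise on chromosome 16 was set beside the genes around it, which were chosen after the members' values were seen. Of 15 other tested genes within 500000 bases on either side of the span from Parp14 to Parp9, 0 were called in edgeR's test with IFNγ. Among all 11964 genes tested 156 were called, so 0 of 15 does not set these genes apart. An unadjusted p under 0.05 was found for 1 of the 15, and for 1016 of all genes tested. The log2 fold changes of the 15 ran from -0.33 to 1.85 with a median of 0.45, against 0 over all genes tested. Kpna1, the gene next to Parp9, had 0.08, and Hspbap1, next to Parp14 on the other side, had 0.42. The value of 1.85 belonged to Stfa1, a gene with a mean of 40.6 counts and an edgeR adjusted p of 0.881. The genes beside it were high as well, namely Gm5483 (1.84), BC100530 (1.69), BC117090 (1.05) and Stfa3 (1.01). Their mean counts were 5.33 to 56.1 and their edgeR adjusted p 0.883 to 0.966.

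With either inhibitor alone, no member passed the threshold in edgeR, DESeq2 or limma-voom. With A-241, 0 of 8 tested members were called against DMSO, where edgeR called 4.35% of all genes. An unadjusted p under 0.05 was found for 0 members, and for 2781 of the 11964 genes tested. The members' log2 fold changes ran from -0.74 for Parp9 to 0.24 for Parp12. With A-485 the count was 0 of 8 against 0.66% of all genes. Again 0 members had an unadjusted p under 0.05, where 1472 of all genes did. The members' values ran from -0.56 for Parp9 to 0.35 for Parp10. Without the 2 libraries rich in Gm42418 the value for Parp9 was 0.15 with A-241 and 0.33 with A-485.

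The single levels show how closely the unstimulated conditions lay together. Parp14 was at 11.6, 11.8 and 11 CPM with A-241 and at 10.8, 12.6 and 8.83 CPM with A-485, within or next to its DMSO range. Dtx3l was at 41.9, 51.1 and 52.7 CPM with A-241 and at 56.1, 49.1 and 54.8 CPM with A-485, and its range crossed that of DMSO in each case. Parp10 was at 20.2, 18.4 and 18.3 CPM with A-241 and at 21.5, 18.3 and 25.6 CPM with A-485. Its ranges too crossed that of DMSO. Plec, the gene that shares exon bases with Parp10, fell in the same libraries, with log2 fold changes of -1.52 for A-241 and -1.15 for A-485 (edgeR adjusted p = 0.000115 and 0.00448).

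Parp8 was the member with the fewest counts, with 4, 1 and 3 counts with A-241 and 6, 2 and 1 counts with A-485 against 5, 8 and 7 in DMSO. Its DMSO libraries, at 1.05 to 2.42 CPM, lay above those with A-241, at 0.2 to 0.841 CPM, and overlapped those with A-485, at 0.232 to 1.06 CPM. It was not tested in the main fit, and 3 counts are at the limit of what these libraries resolve.

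The next comparison asked what the inhibitors did to the genes in cells given IFNγ. It uses the same 3 IFNγ libraries as the comparison with DMSO, so the values below are not independent of those above. With A-241, Parp10 and Parp14 fell and the other 6 tested members were not called, where edgeR called 3.54% of all genes lower. All 8 had a log2 fold change below 0, with a median of -0.74 against -0.02 over all genes tested. In 5 of the 8 each library with A-241 and IFNγ was below each with IFNγ alone, as in 12.1% of all genes. A fit of only these 6 libraries called 0 members and 83 of 11304 genes, with edgeR adjusted p of 0.0264 for Parp10 and 0.0771 for Parp14.

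Parp10 had the lower of the called values. Its level was 37, 24.5 and 27.8 CPM with A-241 and IFNγ, against 81.5, 66.7 and 84.6 CPM with IFNγ alone, so each library with the inhibitor was well below each without. It fell by 1.39 on the log2 scale (SE 0.21), to 0.382 of its level with IFNγ alone, with an edgeR adjusted p of 0.000538. Without the libraries rich in Gm42418 the log2 fold change was -1.50. Plec, which overlaps its 3′ end, fell by 0.94 in this comparison (edgeR adjusted p = 0.00582), and the part of reads counted for both genes in either value was not tested.

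Parp14 was at 61.1, 61 and 60.8 CPM with A-241 and IFNγ. These levels were nearly identical, and below all 3 IFNγ libraries at 105, 142 and 99.5 CPM. It fell by 0.92 on the log2 scale (SE 0.18, edgeR adjusted p = 0.00368), and the log2 fold change was -0.75 without the libraries rich in Gm42418 (adjusted p = 0.00218). The call stood near the threshold, with adjusted p from 0.0113 to 0.0197 without IFNγ replicate 2 or without any 1 of the 3 libraries with A-241 and IFNγ, 0.0137 with total counts as the only scaling and 0.0111 with no filter on low counts.

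Dtx3l had 180, 122 and 159 CPM with A-241 and IFNγ, all below the lowest IFNγ library at 209 CPM. Its log2 fold change of -0.84 (95% interval -1.32 to -0.35) had an edgeR adjusted p of 0.0328 and was not called, nor was the value of -0.64 without the libraries rich in Gm42418 (0.0114). It passed in DESeq2 (adjusted p = 0.00614) and with 2 surrogate variables (8.7e-06), and not in limma-voom (0.0338). Parp9 had 38.5, 34.9 and 38.4 CPM, close together and below the 77.6 CPM of the lowest IFNγ library. Its log2 fold change over all libraries was -2.18 (edgeR adjusted p = 0.0186), and without the 2 libraries rich in Gm42418 it was -1.15 (SE 0.18, adjusted p = 0.000179), a smaller change that passed. It also passed with all libraries when no filter on low counts was used (edgeR adjusted p = 0.00211), in DESeq2 (0.000939) and with 2 surrogate variables (1.09e-09). It did not pass in limma-voom (0.0323) or, in edgeR, without IFNγ replicate 2 alone (0.108). IFNγ replicate 2, at 346 CPM, was the highest of all 18 libraries for Parp9.

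Parp12 had 14.1, 18.8 and 13.4 CPM with A-241 and IFNγ, and the highest of these exceeded the lowest IFNγ library at 17.9 CPM. Its log2 fold change was -0.58 (95% interval -1.13 to -0.04, edgeR adjusted p = 0.206). Parp11 had 17.4, 19.2 and 16.9 CPM, a log2 fold change of -0.65 (edgeR adjusted p = 0.135) that was -0.33 without the libraries rich in Gm42418. Parp1 and Parp2 had log2 fold changes of -0.03 and -0.25. Parp8 had 2, 4 and 1 counts against 12, 5 and 7, and was not tested in the main fit. Its levels of 0.206 to 0.652 CPM lay below the 1.22 to 1.49 CPM with IFNγ alone.

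With A-485 and IFNγ, 0 of 8 members were called by edgeR, where 0.535% of all genes were called lower. An unadjusted p under 0.05 was found for 2 members, and for 1760 of the 11964 genes tested. The log2 fold change was again below 0 for all 8, with a median of -0.37 against -0.03 over all genes. In 2 of the 8, Parp9 and Parp11, each library with A-485 and IFNγ was below each with IFNγ alone, as in 10% of all genes. Parp10 had 62.8, 57.8 and 68.6 CPM, and the highest of these lay just above the lowest IFNγ library at 66.7 CPM. Its log2 fold change was -0.30 (95% interval -0.74 to 0.14). Parp14 had 107, 69 and 95.2 CPM and Dtx3l had 179, 212 and 242 CPM, both within or overlapping the range of IFNγ alone, with log2 fold changes of -0.35 (95% interval -0.73 to 0.02) and -0.38 (-0.86 to 0.10). Parp9 had 58.4, 57.4 and 71.8 CPM and a log2 fold change of -1.44 over all libraries and -0.40 without the 2 rich in Gm42418 (edgeR adjusted p = 0.21 and 0.16). Parp11 had 18.8, 14.5 and 19.6 CPM and a log2 fold change of -0.67 that was -0.36 without those libraries (edgeR adjusted p = 0.209 and 0.242). The values were -0.36 for Parp12, -0.44 for Parp2 and -0.01 for Parp1. Parp8, not among the 8 tested, had 6, 2 and 5 counts, at 0.407 to 1.15 CPM against 1.22 to 1.49 CPM with IFNγ alone.

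**Figure D2:**
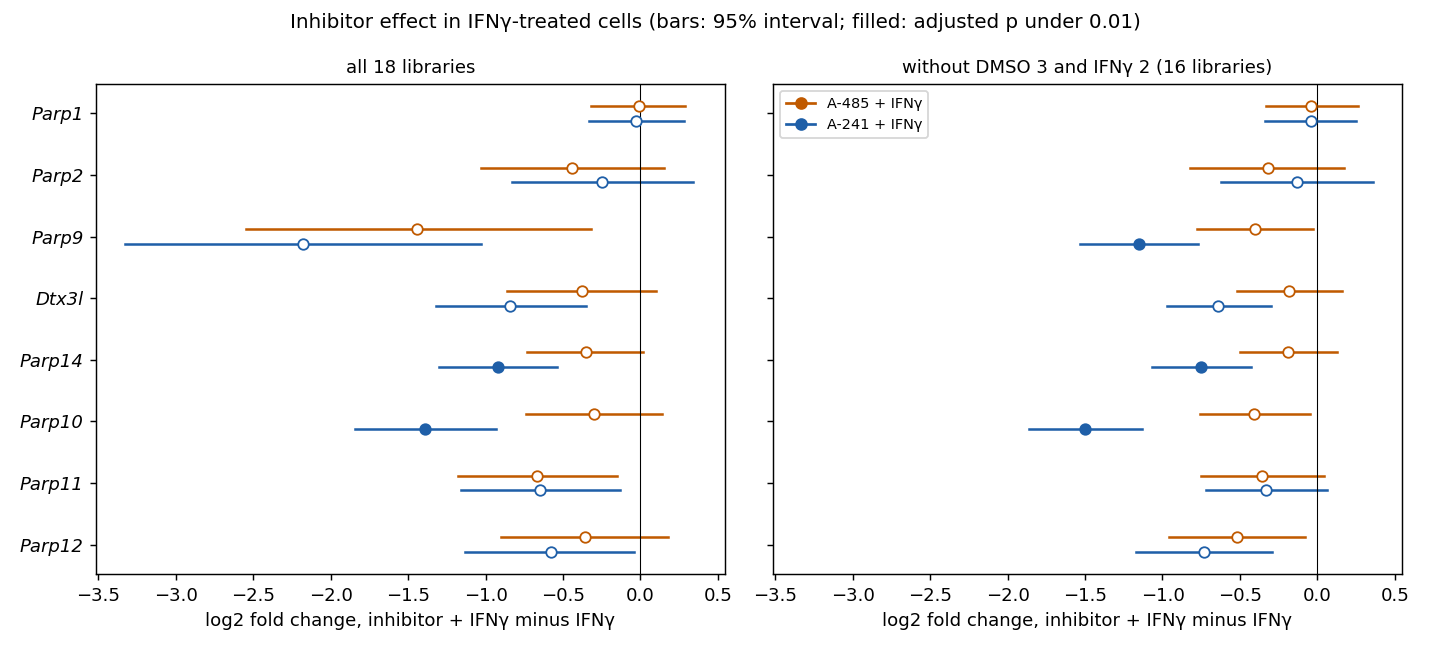
The horizontal axis is the log2 fold change of inhibitor with IFNγ minus IFNγ alone for the 8 tested genes, with 95% intervals, for A-485 (orange) and A-241 (blue). Filled points have an edgeR adjusted p under 0.01. With all 18 libraries (left), Parp14 and Parp10 are filled for A-241 at -0.92 and -1.39, and without DMSO replicate 3 and IFNγ replicate 2 (right) Parp9 is filled as well at -1.15.

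The inhibitors were then set side by side, at doses that differ (250 nM A-241 and 1000 nM A-485), so a difference between them cannot be told apart from a difference in dose. Under IFNγ, edgeR called 0 of 8 members between A-241 and A-485, where 0.518% of all genes were called. An unadjusted p under 0.05 was found for 2 members, and for 778 of the 11964 genes tested. Parp10 came nearest. Its 3 libraries with A-241 and IFNγ, at 24.5 to 37 CPM, lay below the 3 with A-485 and IFNγ, at 57.8 to 68.6 CPM; 11.8% of all genes were separated in this direction. The log2 difference was -1.09 (95% interval -1.54 to -0.63, edgeR adjusted p = 0.0175), and it passed without the libraries rich in Gm42418 (adjusted p = 0.000424), although neither of those is in the groups compared. The difference was -0.57 for Parp14 (95% interval -0.95 to -0.19, edgeR adjusted p = 0.272) and -0.46 for Dtx3l (-0.94 to 0.02). In cells without IFNγ, 0 of 8 members were called between the inhibitors, where edgeR called 0.368% of all genes. Here 0 members had an unadjusted p under 0.05, where 975 of all genes tested did.

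Whether the genes still responded to IFNγ in the presence of an inhibitor was asked by comparing each inhibitor with and without IFNγ. With A-485, Parp14, Dtx3l and Parp10 rose, which was 3 of 8 tested members where edgeR called 0.744% of all genes higher. Parp14 rose 8.38-fold, Dtx3l 3.96-fold and Parp10 2.89-fold, with edgeR adjusted p of 9.31e-08, 0.00012 and 0.000649. The libraries with IFNγ were all above those without in 5 members, as in 9.49% of all genes. Parp12 was at 9.18, 9.54 and 8.6 CPM with A-485 and at 18.2, 20.8 and 15.2 CPM once IFNγ was added. These groups did not overlap, but the log2 fold change of 0.98 did not pass (edgeR adjusted p = 0.122). At nearly the same fold, it passed in a fit of only these 6 libraries (0.00518) and with 2 surrogate variables (0.000211), and missed the threshold without the libraries rich in Gm42418 (0.0105).

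With A-241, Parp14 and Dtx3l rose, which was 2 of 8 tested members where edgeR called 0.192% of all genes higher. Parp14 rose 5.32-fold (edgeR adjusted p = 2.57e-06) and Dtx3l 3.17-fold (0.00197). The libraries with IFNγ were all above those without in 5 members, as in 6.08% of all genes. The call of Dtx3l was lost without any 1 of the 3 A-241 libraries or without replicate 1 of A-241 with IFNγ, with an adjusted p of 0.0123 to 0.0253 in those fits. Parp10, which had risen 4.55-fold with IFNγ alone, was at 20.2, 18.4 and 18.3 CPM with A-241 and at 37, 24.5 and 27.8 CPM once IFNγ was added. Every library with IFNγ was above every one without, and the log2 fold change was 0.65 (95% interval 0.18 to 1.11, edgeR adjusted p = 0.779), which passed with 2 surrogate variables (0.00112). Parp12 had a log2 fold change of 0.84 (0.67) and Parp9 one of 0.41 (1).

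For Parp9, as for Parp12, the call of the IFNγ response with A-485 depended on libraries outside the groups compared. With A-485 the level of Parp9 was 30.9, 42.2 and 21.8 CPM without IFNγ and 58.4, 57.4 and 71.8 CPM with it, and the groups did not overlap. The edgeR adjusted p of the log2 fold change of 0.98 was 0.987 with all libraries in the fit and 0.00141 without the 2 rich in Gm42418, where the SE went from 0.53 to 0.17. All groups in the fit share 1 estimate of the spread.

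**Figure D3:**
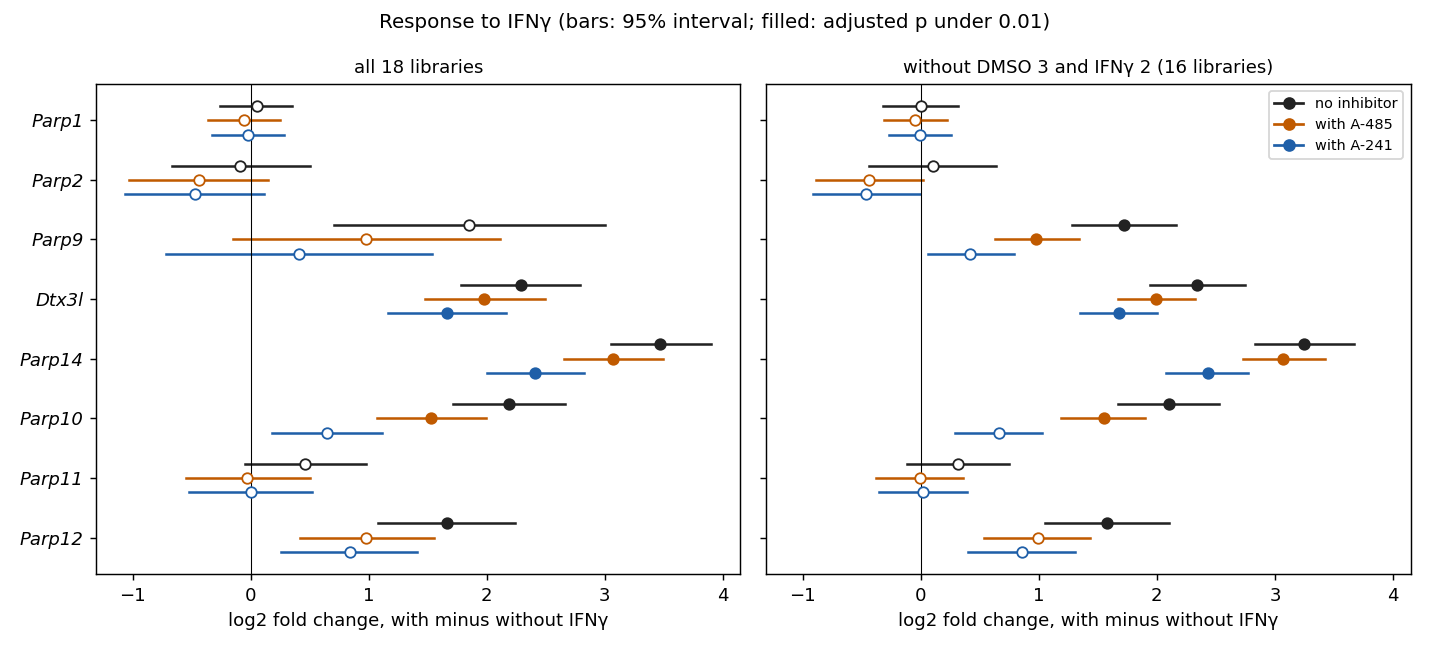
The horizontal axis is the log2 fold change with minus without IFNγ for the 8 tested genes, with 95% intervals, in cells with no inhibitor (black), A-485 (orange) or A-241 (blue). Filled points have an edgeR adjusted p under 0.01. The values of Parp14 are 3.47, 3.07 and 2.41 and those of Parp10 are 2.19, 1.53 and 0.65 in that order with all 18 libraries (left), and the right panel leaves out DMSO replicate 3 and IFNγ replicate 2.

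Whether an inhibitor changed the size of the IFNγ response was tested as an interaction. For A-241, edgeR called 0 of 8 members and 0.0334% of all genes. An unadjusted p under 0.05 was found for 3 members, and for 401 of the 11964 genes tested. The interaction was -1.54 on the log2 scale for Parp10 (95% interval -2.19 to -0.89, edgeR adjusted p = 0.0996) and -1.06 for Parp14 (-1.63 to -0.49, 0.265). It was -0.83 for Parp12, -0.62 for Dtx3l and -1.45 for Parp9. Without the libraries rich in Gm42418 it was -1.45 for Parp10 (edgeR adjusted p = 0.0225), -0.82 for Parp14 (0.287) and -1.30 for Parp9 (0.0467), none of them called. For A-485, 0 of 8 members and 0% of all genes were called, and 1 member and 499 of all genes had an unadjusted p under 0.05. The interaction was -0.65 for Parp10, -0.41 for Parp14 and -0.30 for Dtx3l, and -0.56, -0.18 and -0.35 without those libraries. All 8 values were below 0 for each inhibitor. Their medians were -0.72 for A-241 and -0.45 for A-485, against -0.02 and -0.01 over all genes tested. The values of both inhibitors share the DMSO and IFNγ libraries.

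The order of the mean levels was the same at the top for the responding genes. For Parp14, Dtx3l, Parp10 and Parp12 the IFNγ condition was highest, A-485 with IFNγ was next and A-241 with IFNγ came after it, followed by the conditions without IFNγ. For Parp14 the libraries of A-241 with IFNγ overlapped neither those above nor those below, whereas IFNγ and A-485 with IFNγ overlapped. For Parp10 the step without overlap was between A-485 with IFNγ and A-241 with IFNγ, and for Dtx3l and Parp12 it was between A-241 with IFNγ and the conditions without IFNγ. For Parp1, Parp2 and Parp11 every pair of neighbouring conditions in the order overlapped.

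Over the 6 condition means, which share libraries' scaling and the single step in IFNγ, Pearson's r of log2 CPM was 0.99 between Dtx3l and Parp14, 0.98 between Parp14 and Parp12, 0.94 between Dtx3l and Parp10 and 0.85 between Dtx3l and Parp9. Over the 18 libraries the value for Dtx3l was 0.96 with Parp14 and 0.76 with Parp9, its direct neighbour. These are descriptions, and conditions with and without IFNγ form separate clusters. Among all tested genes, those whose 6 condition means followed Dtx3l most closely were F830016B08Rik (r = 0.9994), Rnf213 (0.9985), a large ubiquitin ligase, Gbp2 (0.9981), a guanylate-binding GTPase, Gm4841 (0.9975) and Hs2st1 (0.9956), a heparan sulfate sulfotransferase. In DMSO the mean log2 CPM was -1.14 for F830016B08Rik and -0.52 for Gm4841, levels at which the prior count of 2 weighs heavily. Over the 18 libraries the r was 0.98 for Gbp2 and 0.62 for Hs2st1.

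Counts of Parp9 and Dtx3l did not keep 1 ratio across libraries. Parp9 had 1.21 counts per Dtx3l count in DMSO replicate 3 and 0.991 in IFNγ replicate 2, against 0.214 to 0.86 in the other 16 libraries. The value of 0.86 was A-485 replicate 2, which had the highest share of Gm42418 among those 16, at 16.2%. By CPM, Dtx3l, Parp2 and Parp11 were also highest of their group in both libraries rich in Gm42418, and so was Parp8, on 7 and 5 counts. Parp10 and Parp12 were lowest of their group in both. Parp14 was lowest in DMSO replicate 3 and highest in IFNγ replicate 2. The part of library composition in these values was not tested.

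**Figure D4:**
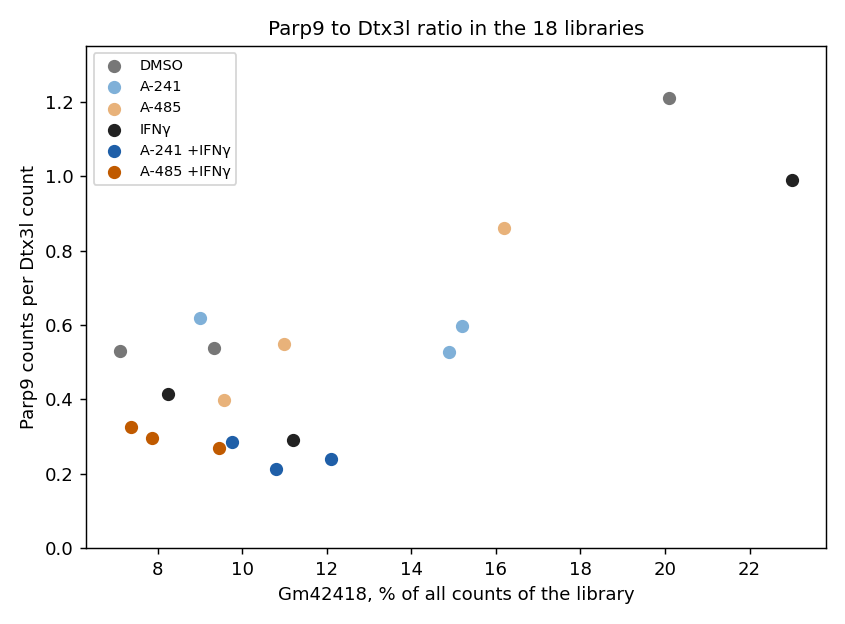
Each point is 1 of the 18 libraries, coloured by condition, with the share of its counts on Gm42418 (percent) on the horizontal axis and Parp9 counts per Dtx3l count on the vertical axis. The libraries at 20.1% and 23% of Gm42418 have ratios of 1.21 and 0.991, above all others.

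The wider machinery of ADP-ribosylation was read from lists of 31 other genes, of which 24 passed the filter on low counts. They comprised 8 other PARPs, 4 Deltex family ligases, 6 genes that remove or read out ADP-ribose, 8 of NAD supply and 5 partners of Parp1. With IFNγ alone, 1 of the 24 was called, where 1.2% of all genes were called higher, and the median log2 fold change of the 24 was 0. That gene was Parp3, which acts at DNA breaks, with 11.2 to 24.9 CPM in DMSO and 39 to 66.7 CPM with IFNγ, groups that did not overlap. It rose by 1.48 on the log2 scale (SE 0.28, edgeR adjusted p = 0.00568), and by 1.49 without the libraries rich in Gm42418.

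With A-241 in IFNγ-treated cells 2 of the 24 were called, both lower, where 3.54% of all genes were called lower. Parp3 fell to 11.6 to 15 CPM, with a log2 fold change of -1.84 (SE 0.28, edgeR adjusted p = 0.00044) that was -1.57 without the libraries rich in Gm42418. With A-485 and IFNγ it was at 19.1 to 26 CPM, below every IFNγ library, and the log2 fold change of -1.06 was not called (edgeR adjusted p = 0.0597). The other gene was Dtx4, a further Deltex ligase, with a log2 fold change of -1.33 (edgeR adjusted p = 0.00879) that was -1.09 and not called without those libraries (0.0123). Dtx4 was not called with IFNγ (log2 fold change -0.92, edgeR adjusted p = 0.143). With A-241 alone it was the 1 gene of the 24 that was called, where 4.35% of all genes were, and fell from 22.1 to 26.6 CPM down to 3.58 to 6.21 CPM, a log2 fold change of -2.33 (adjusted p = 8.89e-05).

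With all libraries, edgeR called 0 of the 24 for A-485 or A-241 with against without IFNγ and for the inhibitors against each other. In each, 2 had an unadjusted p under 0.05, as had 447 to 975 of the 11964 genes tested. With A-485 against DMSO and with A-485 and IFNγ against IFNγ the number called was again 0. Here 5 and 3 had an unadjusted p under 0.05, as had 1472 and 1760 of all genes. In the interactions 0 were called, and 3 for A-241 and 1 for A-485 had an unadjusted p under 0.05, as had 401 and 499 of all genes. Zc3hav1, an antiviral zinc-finger member of the PARP family without transferase activity, had a log2 fold change of 0.65 with IFNγ (edgeR adjusted p = 0.0484). Without the libraries rich in Gm42418 it was 0.70 and called (0.00944). Nampt, the rate-limiting enzyme of NAD salvage, had one of 1.17 (0.0965) and without those libraries one of 1.25, which was called (0.000167). Its groups overlapped, at 24.9 to 56.4 CPM in DMSO and 42.6 to 119 CPM with IFNγ. Against IFNγ alone, Nampt was not called with A-241 and IFNγ (-0.40) or A-485 and IFNγ (-0.42). Without the libraries rich in Gm42418 it was called lower in both, at -0.74 (edgeR adjusted p = 0.00304) and -0.77 (0.0053). With IFNγ alone and all libraries, Parg, which degrades ADP-ribose chains, had a log2 fold change of -0.08. Tnks2, a chain-building PARP, had 0.04. Xrcc1 and Lig3, repair partners of Parp1, had -0.14 and -0.17.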

How the data were processed

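Libraries were made with a 3′ mRNA kit and sequenced as single-end reads. The submitters' processing notes name bcl2fastq (2.17.1.14), FastQC (0.11.5), cutadapt (1.7), HISAT2 (2.1.0), featureCounts, limma and mm10. Per the study's methods, reads overlapping several exons counted for each gene, and no strand option is listed. The authors deposited raw read counts per gene, with no normalization and no molecular identifiers, so intervals cover counting error and spread between libraries, not amplification. Identifiers were matched to GENCODE vM21 symbols (97.5% of 43629).

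Counts were analysed in R 4.3.3 with edgeR 4.0.16. Genes were filtered by filterByExpr, scaled by TMM factors and fitted over all 18 libraries with 1 term per condition (glmQLFit, glmQLFTest). P-values were adjusted by Benjamini-Hochberg over 11964 genes, and a call needed an adjusted p under 0.01. CPM values use TMM-scaled totals, and log2 CPM a prior count of 2. Levels are not compared between genes, apart from the counts of Parp9 per Dtx3l count and the naming of the least and most counted genes. Alternatives used DESeq2 1.42.0, limma 3.58.1 (voom), sva 3.50.0, other scalings, filters and samples. On simulated data for IFNγ against DMSO over 11813 genes, 97.2% of 107 genes changed by 2 on the log2 scale were recovered. Of 93 changed by 1, 17.2% were recovered, and there were 2 false calls. The simulation gave a gene the same spread in every library, taken from the trend with level, so no library stood apart. Changes were placed only in genes above a minimum level, so recovery in the real data may be lower.

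The genes and the pathway lists were chosen with earlier results of these data known. Members were all named; of the pathway lists, genes called in a comparison and the most highly counted were named, and the genes most like Dtx3l were the 5 with the highest r over condition means. Genes around Parp14, Dtx3l and Parp9 were added after the values were seen. No pair of replicates within a group agreed within sampling noise (chi-square per degree of freedom 2.09 to 125 over 18 pairs), so all libraries were kept as separate samples. Figures were drawn with matplotlib 3.10.9. A further gene used to check the labels is not reported here.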

Additional observations from a re-analysis of the deposited data

How the results depend on the processing

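The number of members called was recomputed under each alternative. Over 27 results for single members with an unadjusted p under 0.05, 351 alternative values were computed, of which 320 stayed on their side of the threshold, 8 lost the call and 23 gained one; among 186 values with 1 library left out, 174 stayed, 10 lost the call and 2 gained one. None of the 27 changed direction.

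With IFNγ against DMSO, 4 members and 156 of all genes were called. A fit of only these groups called 1 member and 19 genes. Leaving out 1 library at a time gave 3 to 5 members and 106 to 190 genes. With A-241 and IFNγ against IFNγ, 2 members and 489 genes were called. DESeq2, an adjusted p under 0.05 and 2 surrogate variables each called 4, namely Parp9, Dtx3l, Parp10 and Parp14. They called 756, 918 and 1544 of all genes. Total counts only called 1 member and 390 genes, and a fit of only these groups called 0 members and 83 genes. Leaving out 1 library gave 1 to 3 members and 250 to 497 genes. With A-485 and IFNγ against IFNγ, 0 members and 66 genes were called, and 2 surrogate variables gave 1 member and 362 genes. For IFNγ in the presence of A-241, 2 members and 23 genes were called, and leaving out 1 library gave 1 to 2 members and 14 to 17 genes. For IFNγ in the presence of A-485, 3 members were called and 89 genes were called higher. With 2 surrogate variables or a fit of only these groups it was 5 members, where 248 and 154 genes were called higher. Between the inhibitors under IFNγ, 0 members were called, where 61 genes were called lower with A-241. DESeq2, limma-voom, an adjusted p under 0.05 and the fit without both libraries rich in Gm42418 each gave 1, which was Parp10. In those fits 108, 64, 102 and 150 genes were called lower. With 2 surrogate variables 3 members were called, where 276 genes were lower, and a fit of only these groups called 2, where 138 genes were lower. For the A-241 interaction, 0 members were called, DESeq2 gave 1 and 2 surrogate variables gave 2, where 4, 24 and 57 genes had a called value below 0. For the A-485 interaction, 0 members were called and 2 surrogate variables gave 1, where 0 and 21 genes had one. For each inhibitor alone against DMSO and for the inhibitors without IFNγ, 0 members were called in all alternatives, DESeq2 and limma-voom included. Against DMSO these fits called 75 to 2148 genes for A-241 and 0 to 765 for A-485. The cause of these changes was not tested. With A-241 and IFNγ against IFNγ, dropping the filter on low counts left the count at 2, but Parp14 lost its call and Parp9 gained one.

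The replicate numbers did not pair the libraries: over 45 pairs with the same number in different conditions, the correlation of deviations ran from -0.8 to 0.48, and 5 of 18 libraries correlated best with their own number. With the replicate block, 4 members and 125 genes were called for IFNγ against DMSO. For A-241 with IFNγ against IFNγ 2 members and 377 genes were called, and the block changed the call of no member.

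Total counts as the only scaling moved the median log2 fold change of all genes from 0.01 to 0.12 with A-241 and from -0.02 to 0.13 with A-241 and IFNγ, and the called genes in the latter comparison became 96 higher and 294 lower in place of 65 and 424. With 3 libraries in a condition, genes changed by 1 on the log2 scale were mostly missed in the simulated data, and a member without a call is not shown to be unchanged.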
